A study of Homo sapiens with 5 samples.

Results

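A set of 9 basic helix-loop-helix (bHLH) transcription factors, most of them neuronal, were followed through the differentiation of human pluripotent stem cells into GnRH neurons. They are NEUROG1, NEUROG2, NEUROD1, NEUROD2, NEUROD4, NEUROD6, NHLH1, NHLH2 and ASCL2, and each symbol matched 1 row in all 8 libraries, so the group is 9 of the 33538 genes listed for D22, D24 and D26 and 9 of the 36601 listed for D0, D5 and D10. NEUROG1 was the leading factor at D22, at 496 CPM (its UMIs, or unique molecular identifiers, each standing for 1 captured transcript, scaled to a common total), and 78.6% of the D22 cells held at least 1 of its UMIs. By D26 it was down to 1.38 CPM. NEUROD1, NEUROD4 and NHLH1 were also highest at D22, NHLH2 was highest at D24, and ASCL2 was higher in the D22 cells that held DLX1 and DLX2 than in those without, where the order was the reverse for NEUROG1 and its companions.

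Single-cell RNA sequencing on 10× Genomics droplets was done on the human embryonic stem cell line WA09. The groups are D0 (undifferentiated cells), D5_dSMADi and D10_dSMADi (5 and 10 days of dual SMAD inhibition with 2 μM dorsomorphin and 10 μM SB431542), D5_XAV939 and D10_XAV939 (the same with XAV939, an inhibitor of Wnt/β-catenin signalling, at 10 μM), and D22, D24 and D26. The last 3 had dual SMAD inhibition to day 10 without XAV939, FGF8 at 100 ng/mL from day 11 to day 20, and the Notch pathway inhibitor DAPT at 20 μM from day 21. Their cultures were frozen once, at day 17, and grown on. Each group is 1 library of 1 cell line, with no replicate, so no difference between libraries could be tested. D0 to D10 are tagged parts of 1 pool and are called libraries here. Between them and D22 to D26, the sequenced pool, the Cell Ranger version, the gene list and the enzyme used to dissociate the cells also differed. Their part in differences between D10 and D22 cannot be told apart from that of the day.

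After the filter on cells, the libraries held between 1008 cells (D0) and 11056 cells (D26). The median cell held 69455.5 UMIs at D0, between 24290.5 and 31112.5 in the D5 and D10 libraries, 12179, 7180 and 8485 in the 3 later ones. The 5 libraries of D0 to D10 came from 1 tagged pool and shared 0 cell barcodes with each other. D22, D24 and D26 shared 27 to 37 barcodes pairwise, and 1 to 15 with each tagged library. With XAV939, the listed β-catenin feedback genes (AXIN2, LEF1, SP5, NKD1, RNF43 and ZNRF3) were within 2-fold for 5 of 5 measured (10 or more UMIs in either library) at D10 and for 5 of 6 at D5, with 1 lower. Few of all genes measured differed at least 2-fold in these comparisons, 3.7% higher and 7.75% lower at D10 and 3.43% and 3.23% at D5. The libraries differed in the marker lists. The summed level of 5 genes of dividing cells was 1580 to 2604 CPM up to D22, then 116 at D24 and 41.7 at D26, and that of 7 neuronal genes went from 2127 at D22 to 12412 and 12653. All 4 listed progenitor markers were at least 2-fold lower at D24 than at D22. Defining markers of endoderm and endothelium were at 0.527 CPM or less, summed, in every library, and those of astrocytes at 1.01 or less. The sums were 0.151 to 13.8 CPM for mesenchyme (COL1A1, COL3A1 and DCN) and 0.978 to 18.4 for oligodendrocytes (MBP and MOG), where at least 1 of the 2 genes was under 1 CPM in every library and MBP made up 18.39 CPM of the highest sum.

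bHLH factors bind DNA as pairs at the E-box, a short motif with the letters CANNTG, and those of the neuronal lineage usually pair with a widely expressed E protein (TCF3, TCF4 or TCF12). Neurogenins are proneural factors that commit a progenitor to the neuronal fate and switch on Notch ligands, NEUROD genes and NHLH genes. Notch signalling in the neighbouring cell induces HES repressors that hold proneural genes down, and ID proteins block bHLH factors by taking up the E proteins. Neurogenin 1 is a determination factor of cranial sensory and olfactory neurons and of parts of the forebrain.

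The bases before the start of transcription are shown for the 3 factors whose levels at D22 are followed most closely below, to place them in the genome and to show where E-boxes stand. Sequences are from RefSeq (GRCh38.p14), 250 bases on the strand of the gene, read 5′ to 3′, with every CANNTG in capitals.
NEUROG1 (chr5:135535965-135536214, minus strand): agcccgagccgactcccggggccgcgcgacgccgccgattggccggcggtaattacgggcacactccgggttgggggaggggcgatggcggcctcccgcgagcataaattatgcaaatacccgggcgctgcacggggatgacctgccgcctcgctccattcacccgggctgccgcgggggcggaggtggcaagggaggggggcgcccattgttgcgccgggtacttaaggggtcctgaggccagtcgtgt
NEUROD4 (chr12:55019724-55019973, plus strand): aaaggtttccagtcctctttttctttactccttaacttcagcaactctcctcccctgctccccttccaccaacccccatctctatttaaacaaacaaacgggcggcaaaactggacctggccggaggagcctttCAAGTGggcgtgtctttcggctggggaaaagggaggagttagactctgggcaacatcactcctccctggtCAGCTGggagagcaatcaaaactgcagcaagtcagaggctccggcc
NHLH1 (chr1:160366821-160367070, plus strand): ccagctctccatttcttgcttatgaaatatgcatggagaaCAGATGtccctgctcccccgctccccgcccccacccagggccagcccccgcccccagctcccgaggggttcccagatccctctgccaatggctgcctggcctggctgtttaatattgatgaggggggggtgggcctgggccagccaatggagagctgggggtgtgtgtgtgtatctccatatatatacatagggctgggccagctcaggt

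CANNTG reads as the same pattern on both strands, and 61.8% of the 35116 RefSeq promoters held at least 1 in their 250 bases. NEUROG1 held 0, as did NEUROG2 and NEUROD1. NEUROD4 held CAAGTG 116 bases and CAGCTG 46 bases before the start, and NHLH1 held CAGATG 210 bases before it. CAGCTG was present in 14.0% of all promoters and CAGATG, searched on both strands, in 12.2%, and both are also counted among the CANNTG matches. A match is a description of the letters and not of binding, and 8 of the 9 factors had a promoter in the table used.

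In GRCh38 (GENCODE 44), NEUROG1 (ENSG00000181965) is a gene of 1 exon at chr5:135534282-135535964, NEUROD1 (ENSG00000162992) lies at chr2:181668295-181680827, NEUROD4 (ENSG00000123307) at chr12:55019974-55030017, NHLH1 (ENSG00000171786) at chr1:160367071-160372846 and ASCL2 (ENSG00000183734) at chr11:2268498-2270588. NEUROD1 overlaps CERKL on the same strand, and CERKL itself held 3.06 CPM at D22. NEUROG2 overlaps the antisense gene NEUROG2-AS1, and NEUROG1 overlaps SLC25A48 and ENSG00000250167 on the other strand, which held 0.644 and 0.0307 CPM at D22. How the counting treated reads in such overlaps is not given in the sources used here, so these counts are uncertain to that extent.

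Levels in CPM are the UMIs of a gene summed over the cells of a library or a set, scaled to the same total of UMIs for each. UMIs are counted at the 3′ end of transcripts and were not divided by gene length. Intervals in brackets are exact 95% intervals that cover counting error only, and a gene whose UMIs come mostly from a handful of cells is known less precisely than its interval says. In sums of this kind, fewer cells that express a gene and less RNA per cell cannot be told apart.

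The neurogenins differed in level and in course. NEUROG1 had 1 UMI in all D0 cells (0.0132 CPM), 0.0502 CPM at D5_dSMADi, 0.0577 at D5_XAV939, 0.838 at D10_dSMADi, 4.05 at D10_XAV939, 496 at D22 (492 to 499.8), 46.5 at D24 and 1.38 at D26. D22 stood apart from every other library, and the intervals of D0 and of both D5 libraries overlapped. NEUROG2, the related proneural factor of the dorsal telencephalon, was lower than NEUROG1 in both D10 libraries, at D22 and at D24, and higher in the others. The intervals of the 2 overlapped at D0 (3 against 1 UMIs), D10_dSMADi (58 against 66) and D26 (166 against 137). NEUROG2 measured 0.0395 CPM at D0, 0.326 at D5_dSMADi, 1.67 at D5_XAV939, 0.736 at D10_dSMADi, 0.585 at D10_XAV939, 16.95 at D22, 4.32 at D24 and 1.67 at D26. At D22, 12.9% of cells held a NEUROG2 UMI against 78.6% for NEUROG1.

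Among the NEUROD factors, which carry a committed cell on to neuronal differentiation, NEUROD1 and NEUROD4 were found and NEUROD2 and NEUROD6 hardly at all. NEUROD1 measured 0.198 CPM at D0, 0.427 at D5_dSMADi, 0.381 at D5_XAV939, 1.04 at D10_dSMADi, 8.21 at D10_XAV939, 142 at D22, 39.4 at D24 and 14.7 at D26. It was the leading member at D26, with 60.5% of the UMIs of all 9 factors. NEUROD4, a factor of newborn neurons, measured 0.0264 CPM at D0, 0.577 at D5_dSMADi, 0.0231 at D5_XAV939, 0.343 at D10_dSMADi, 1.64 at D10_XAV939, 103 at D22, 4.43 at D24 and 0.784 at D26. NEUROD2, typical of maturing cortical projection neurons, lay between 0.0527 CPM at D0 and 0.805 at D22, and no cell of any library held more than 2 of its UMIs. NEUROD6, typical of the same neurons, had 1 UMI at D22 and 0 in the 7 other libraries, which allows between 0.0302 CPM (D26) and 0.0517 (D10_XAV939) by the limit of 3 UMIs.

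NHLH1 and NHLH2 are close relatives that mark neurons soon after their last division, and NHLH2 is known for its part in the hypothalamic control of body weight and fertility. NHLH1 measured 0.685 CPM at D0, 3.16 at D5_dSMADi, 2.94 at D5_XAV939, 5.01 at D10_dSMADi, 18.9 at D10_XAV939, 125 at D22, 26.7 at D24 and 2.79 at D26. It held the largest share of the 9 factors' UMIs in all 4 libraries of D5 and D10, between 53.2% and 64.6%. NHLH2 measured 1.34 CPM at D0, 0.125 at D5_dSMADi, 0.0923 at D5_XAV939, 0.698 at D10_dSMADi, 0.448 at D10_XAV939, 0.889 at D22, 6.91 at D24 and 2.45 at D26, so that it was lowest at D5 and highest 2 days after the others. Most of the D24 signal came from few cells, as the 91 cells with most NHLH2 held 60% of its UMIs.

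ASCL2 is known from trophoblast and intestinal stem cells. Its level was 0.422 CPM at D0, between 0.0115 and 0.0517 at D5 and D10, 10.3 at D22, 0.114 at D24 and 0.101 at D26. D22 alone stood above 1 CPM, with 853 of its 9523 cells holding a UMI. Summed over the 9 factors, the level was 2.78 CPM at D0, 8.99 at D10_dSMADi, 34.0 at D10_XAV939, 895 at D22, 129 at D24 and 24.4 at D26.

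**Figure D1:**
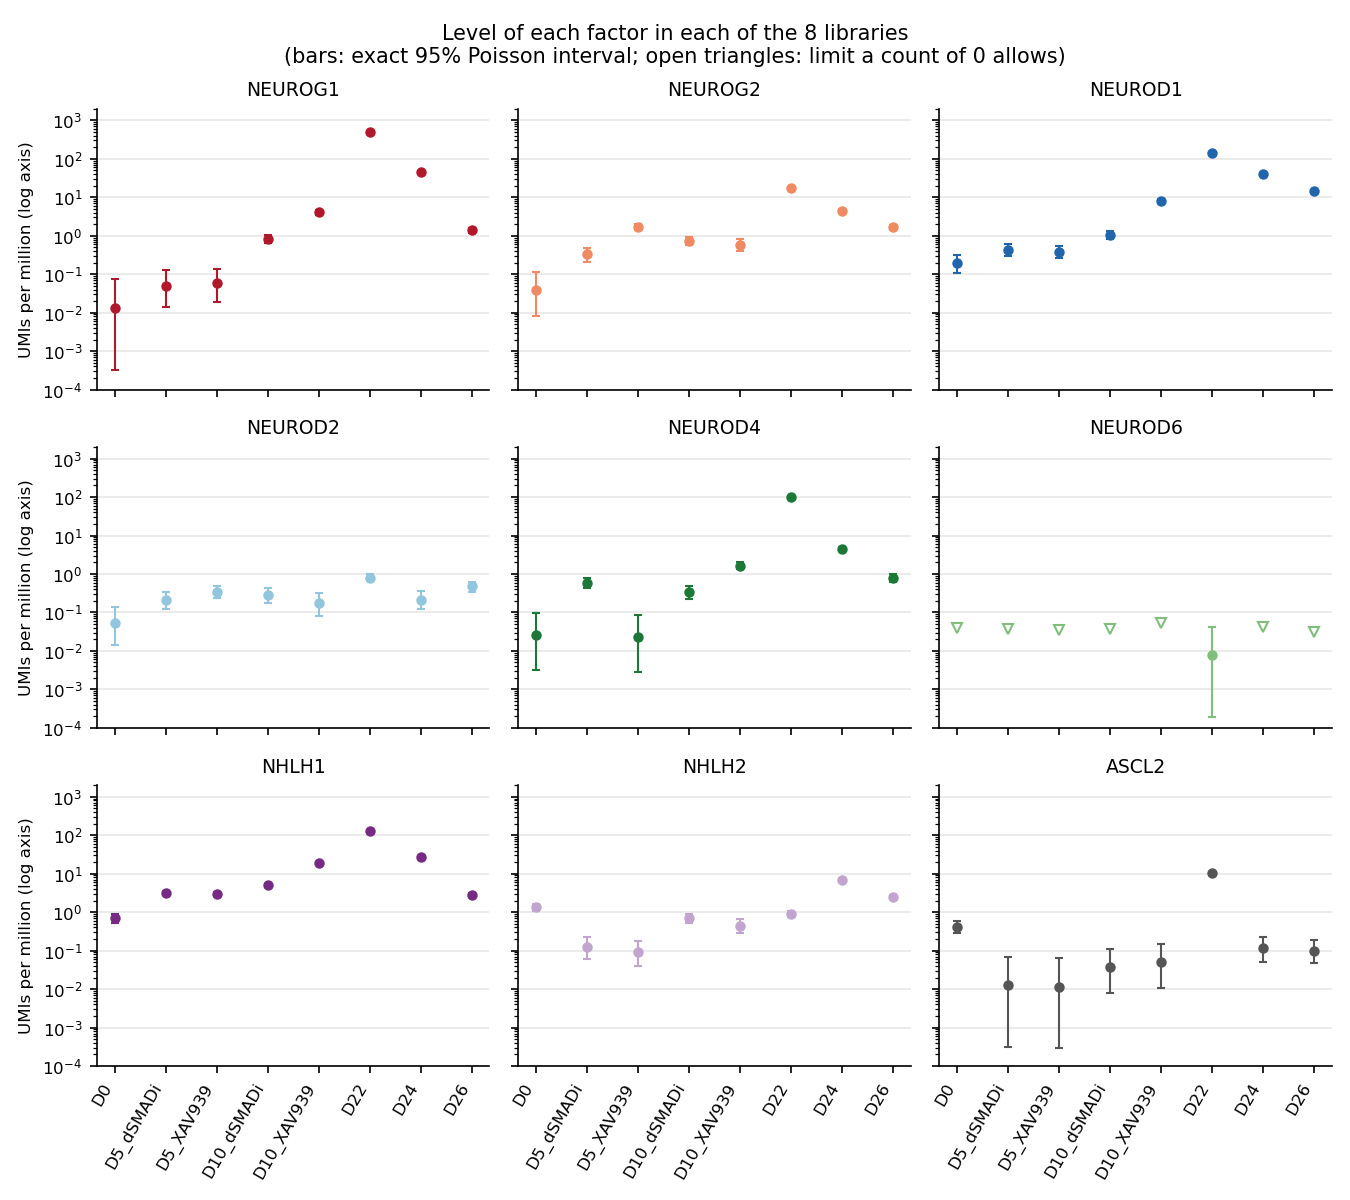
CPM of each of the 9 factors (log axis) in the 8 libraries, 1 point per library. Bars are exact 95% Poisson intervals and open triangles mark the limit that a count of 0 allows. NEUROG1, NEUROG2, NEUROD1, NEUROD4, NHLH1 and ASCL2 peak at D22 and NHLH2 at D24, while NEUROD2 stays under 1 CPM and NEUROD6 has a single UMI.

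At D5, XAV939 went with a higher NEUROG2 and a lower NEUROD4. A factor is called here when its level differed at least 2-fold and it had 10 or more UMIs in either library. Of 6 members measured, 1 was higher and 1 lower, where 3.43% of 18925 genes were higher and 3.23% lower by the same rule. NEUROG2 had 145 UMIs in 100 cells of D5_XAV939 and 26 UMIs in 22 cells of D5_dSMADi, a log2 ratio of 2.36 (1.75 to 3.02). Its antisense partner NEUROG2-AS1 was at 0.358 and 0.0753 CPM in the same libraries. NEUROD4 had 2 UMIs in D5_XAV939 and 46 in D5_dSMADi, a log2 ratio of -4.65 (-7.73 to -2.71), and those 46 lay in 22 cells, of which 5 held 3 or more. NEUROD1, NEUROD2, NHLH1 and NHLH2 were within 2-fold. NHLH1, the only one of these with over 100 UMIs, had a log2 ratio of -0.10 (-0.36 to 0.15).

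The partners and opponents of these factors differed at D5 among the HES, HEY and ID genes, a list that includes HES6. Of 8 HES, HEY and ID genes, 4 were at least 2-fold lower and 1 higher with XAV939, with a median log2 ratio of -1.04 where the median of all genes was 0.05. ID1 was at 66.5 CPM against 328 (log2 ratio -2.30) and ID3 at 397 against 1068 (-1.43). ID4 was at 43.5 against 104 (-1.26). HES1, a main target of Notch, was at 81.8 against 33.9 (1.27). All 3 E proteins, 4 measured Notch ligands and modifiers and 12 of 13 downstream neuronal genes stayed within 2-fold.

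At D10 most of the factors measured were higher than at D5 in both arms. Without XAV939, 4 of 7 members measured were at least 2-fold higher and 0 lower, beside 13.6% of all genes higher and 3.89% lower. These were NEUROG1 (log2 ratio 4.06), NHLH2 (2.48), NEUROD1 (1.29) and NEUROG2 (1.17). The NEUROG2 call was lost with median-of-ratios size factors (0.94), and NHLH1 (0.67) passed 2-fold by the mean over cells (1.05). The NHLH2 call rests on 55 against 10 UMIs, of which 37 of the 55 lay in 9 cells. With XAV939, 5 of 7 were higher and 2 lower, beside 9.84% and 5.54% of all genes. NEUROD4 (6.15), NEUROG1 (6.13), NEUROD1 (4.43), NHLH1 (2.68) and NHLH2 (2.28) were higher and NEUROG2 (-1.51) and NEUROD2 (-1.01) lower. The NEUROD2 call rests on 10 against 30 UMIs and was lost in 3 of 6 other settings. The NHLH2 call with XAV939 rests on 26 against 8 UMIs. These comparisons share their libraries with those of XAV939 at each day.

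With XAV939 at D10, NEUROG1, NEUROD1, NEUROD4 and NHLH1 were higher. Of 7 members measured, 4 were at least 2-fold higher and 0 lower, beside 3.7% and 7.75% of 19250 genes. The median log2 ratio of the members was 1.91 and that of all genes -0.02. NEUROD1 had 477 UMIs in D10_XAV939 and 82 in D10_dSMADi, a log2 ratio of 2.98 (2.64 to 3.34). NEUROG1 followed with 235 and 66 UMIs, or 2.27 (1.87 to 2.69), NEUROD4 with 95 and 27, or 2.25 (1.63 to 2.93), and NHLH1 with 1097 and 395, or 1.91 (1.75 to 2.08). For NEUROG2, NEUROD2 and NHLH2 the interval of the log2 ratio included 0. Of the mesenchyme markers, COL1A1 was at 3.46 CPM with XAV939 and 13.8 without, and COL3A1 and DCN had 0 to 2 UMIs. The part of such cells in these values was not tested. SOX10, a defining gene of neural crest, had 4 UMIs with XAV939 and 10 without (0.0689 and 0.127 CPM), and FOXD3, of early neural crest and pluripotent cells, 27 and 37. Of 14 downstream neuronal genes, 8 were higher, and STMN2, which encodes a microtubule protein of neurons, was at 113 against 20.2 CPM.

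Much of this signal lay in a small set of cells that held 10 or more UMIs of STMN2 and DCX, another microtubule protein of young neurons. This set had 19 of 2416 cells at D10_dSMADi, or 0.786% (0.474 to 1.23), and 74 of 2168 at D10_XAV939, or 3.41% (2.69 to 4.27). It held 90.9% of the NEUROG1 UMIs at D10_dSMADi and 99.6% at D10_XAV939. For NEUROD1 these shares were 68.3% and 92.03%, for NEUROD4 40.7% and 100% and for NHLH1 40.8% and 89.5%.

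Within the STMN2 and DCX set the levels of NEUROG1, NEUROD1, NEUROD4 and NHLH1 were closer between the 2 arms than in the whole libraries. NEUROG1 was at 122 CPM with XAV939 and 138 without, a log2 ratio of -0.17 (-0.59 to 0.26). NEUROD1 was at 229.8 and 129 (0.83, 0.43 to 1.26), NEUROD4 at 49.7 and 25.3 (0.97, 0.07 to 2.02), and NHLH1 at 514 and 371 (0.47, 0.23 to 0.72). A NEUROG1 UMI was found in 51 of 74 cells and in 14 of 19. NHLH2 went the other way, at 12.6 with XAV939 and 85.2 without (-2.76, -3.57 to -1.98), with a UMI in 6 of 74 and 9 of 19 cells. With 19 cells in 1 arm, a handful of cells sets these values.

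Cells with 0 STMN2 and DCX UMIs were taken as the other end of the scale. They numbered 2046 at D10_dSMADi and 1277 at D10_XAV939, or 84.7% and 58.9% of the cells, and 351 and 817 cells lay between the limits. DCX itself was at 5.78 CPM in the whole D10_dSMADi library and 29.6 in D10_XAV939, so these sets need not hold like cells. NEUROG1 was at 0.0303 and 0.0308 CPM there, and a UMI was found in 2 and 1 cells. For NHLH1, 9.24% of those cells at D10_dSMADi and 4.54% at D10_XAV939 held at least 1 UMI, with levels of 3.04 and 1.85 CPM. At D10_dSMADi such cells, 84.7% of the library, held 46 of 58 NEUROG2 UMIs, 16 of 22 NEUROD2 UMIs and 14 of 27 NEUROD4 UMIs. NEUROD1 was at 0.708 CPM in them with XAV939 and 0.273 without, on 23 and 18 UMIs (1.38, 0.42 to 2.35).

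**Figure D2:**
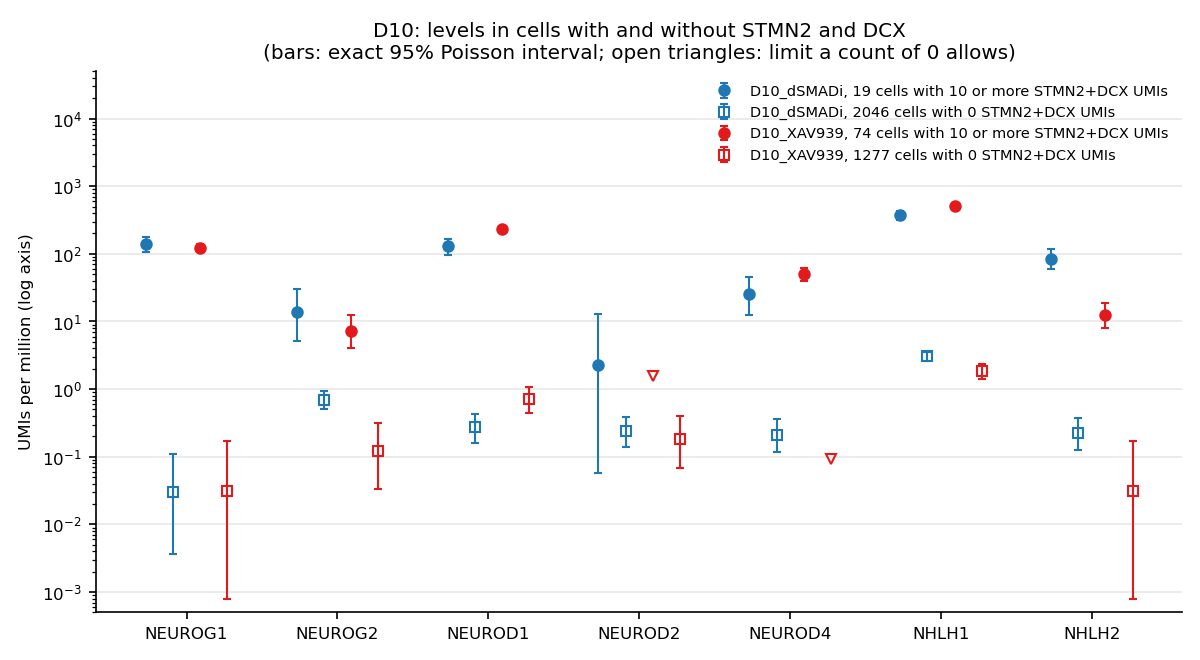
CPM (log axis) of 7 factors at D10 in cells with 10 or more UMIs of STMN2 and DCX (filled circles, 19 and 74 cells) and in cells with 0 (open squares, 2046 and 1277 cells), without XAV939 in blue and with it in red. Bars are exact 95% Poisson intervals and open triangles mark the limit that a count of 0 allows. NEUROG1, at 138 and 122 in the filled circles and 0.0303 and 0.0308 in the open squares, shows the gap between the sets.

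D22 cells with 5 or more UMIs of MKI67 and TOP2A (2043 dividing cells) were compared with those with 0 (5898 cells). The non-dividing cells, 61.9% of the library, held 64.4% of the NEUROG1 UMIs, 70.7% of those of NEUROD4 and 79.9% of those of NHLH1. The dividing cells were also deeper, with a median of 17361 UMIs against 11724.5. Of 8 members measured, 0 were at least 2-fold higher in dividing cells and 5 lower, beside 8.77% and 11.3% of 17614 genes, and the median log2 ratio was -1.44 against -0.06 for all genes.

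NEUROG1 was at 325 CPM in dividing cells and 574 in the others, a log2 ratio of -0.82 (-0.85 to -0.79). NEUROD1 stood close to it in this respect, at 96.5 and 165 (-0.77, -0.83 to -0.72). NEUROD4 was at 42.6 and 131 (-1.62, -1.69 to -1.54). NHLH1 had the widest gap of the abundant factors, at 31.9 and 179.8 (-2.50, -2.58 to -2.41). Leaving doublets out kept 1837 dividing and 5763 non-dividing cells, and the NHLH1 ratio was then -3.15. In a window of depth, the gap was wider for NEUROD4 (-2.02) and narrower for NEUROG1 (-0.70). NEUROG2 was at 8.52 and 20.5 (-1.27). NHLH2 and NEUROD2 were also lower in dividing cells, on 14 against 87 and 8 against 77 UMIs. ASCL2 was the single member with more in dividing cells, 11.8 against 8.85 (0.41, 0.24 to 0.59), which is under 2-fold and went the other way within DLX-positive cells (-0.46).

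After each cell was thinned to 1500 UMIs, 34.5% of dividing cells and 49.3% of the others held a NEUROG1 UMI (unthinned 72.0% and 80.3%). For NHLH1 the thinned shares were 3.67% and 20.7% (unthinned 22.5% and 61.2%). For every 100 NEUROG1 UMIs, dividing cells held 29.7 NEUROD1 UMIs and the others 28.7. The same count for NHLH1 was 9.80 and 31.3, so the make-up of the group differed between the sets. At the limit itself, NEUROG1 was at 476 CPM in the 123 cells with 4 UMIs of MKI67 and TOP2A and at 470.2 in the 120 cells with 5. NHLH1 was at 92.9 and 63.9 in these cells, NEUROG2 at 9.85 and 21.7 and ASCL2 at 8.62 and 14.1.

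Among the listed partners, 11 of 14 downstream neuronal genes were at least 2-fold lower in dividing cells. Those named by size were STMN2 (261 against 1987 CPM), ELAVL4, an RNA-binding protein of neurons (19.6 against 141), DCX (158 against 535) and the neuronal splicing factor SRRM4 (97.6 against 281). Of 8 HES, HEY and ID genes, HES6 included, 4 were higher and 0 lower, and all 3 E proteins were within 2-fold. Among 5 Notch ligands and modifiers, 2 were lower.

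The non-dividing D22 cells were then put in order by the share of UMIs on 7 neuronal genes (STMN2, DCX, ELAVL4, GAP43, INA, MAPT and TUBB3) and split into 5 quintiles of 1179 or 1180 cells. These are ranges of a score and not cell types, and 231 to 379 cells lay within 10% of each limit. The factors had their highest levels at different places in this order. ASCL2 was highest in quintile 1, at 16.0 CPM against 0.867 in the last. NEUROD4 was highest in quintile 3, with 83.4, 158, 202, 175 and 26.9 over the quintiles. NEUROG1 was highest in quintile 4, with 429.8, 619, 712, 807 and 281.

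NEUROD1 was also highest in quintile 4, with 96.9, 173, 205, 238 and 107 CPM. For every 100 NEUROG1 UMIs there were 22.5 NEUROD1 UMIs in quintile 1 and 37.96 in quintile 5. NHLH1 had its highest level in quintile 4 and its next highest in the last, with 55.8, 124, 192, 327 and 202. NHLH2 was highest in quintile 5, at 4.41 against 0.208 in the first, on 61 and 3 UMIs. NEUROG2 stayed between 13.5 and 23.4. Weighting each quintile by the level gives a centre of 2.11 for ASCL2, 2.84 for NEUROG2, 2.85 for NEUROD4, 2.96 for NEUROG1, 3.103 for NEUROD1, 3.55 for NHLH1 and 4.44 for NHLH2, on a scale where 1 is quintile 1. Neighbours from NEUROG2 to NEUROD1 in this order are close together. Between quintiles 4 and 1, 4 of 8 members measured were at least 2-fold higher and 1 lower, beside 7.09% and 6.92% of genes. Between quintiles 5 and 4, 1 was higher and 4 lower, beside 11.6% and 6.63%.

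**Figure D3:**
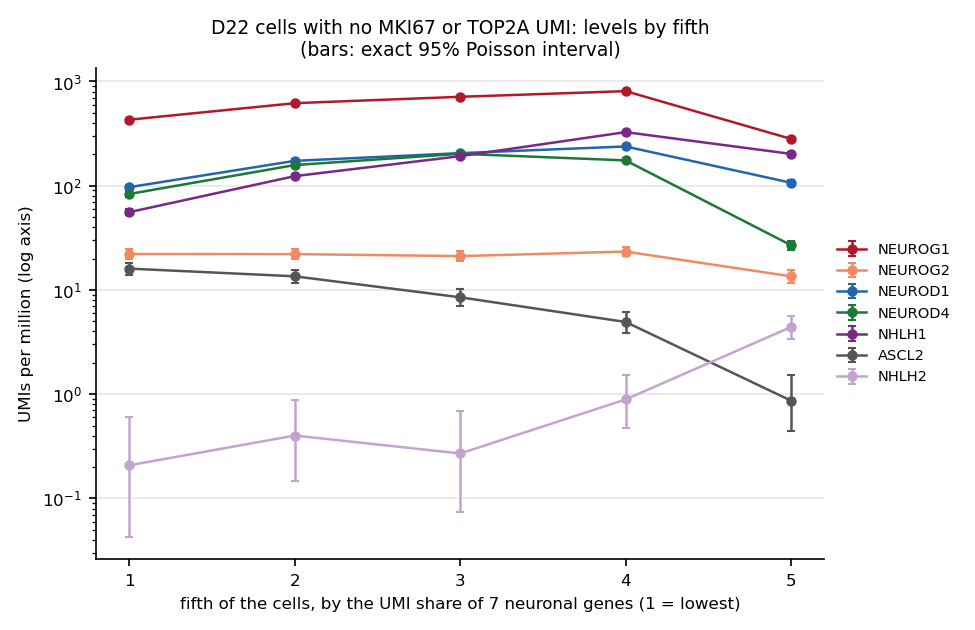
CPM (log axis) of 7 factors in non-dividing D22 cells, by quintile of the UMI share on 7 neuronal genes (1 is the lowest). Bars are exact 95% Poisson intervals. ASCL2 is highest in quintile 1, NEUROD4 in quintile 3, NEUROG1, NEUROD1 and NHLH1 in quintile 4, and NHLH2 is highest in the last, at 4.41.

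DLX1 and DLX2 are homeobox genes of the ventral forebrain and of its GABAergic neurons. D22 cells with 3 or more of their UMIs (742 DLX-positive cells) were compared with those with 0 (8183 DLX-negative cells). The median depth was alike, with 12242 and 12133 UMIs. Most of the factors were lower in DLX-positive than in DLX-negative cells and ASCL2 was higher, while NEUROG1 had more UMIs than ASCL2 in both. Of 8 members measured, 6 were at least 2-fold lower in them and 1 higher, beside 7.72% and 3.86% of 17743 genes, and the median log2 ratio was -2.84 against -0.06 for all genes.

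NEUROG1 was at 91.9 CPM in DLX-positive and 557 in DLX-negative cells, a log2 ratio of -2.60 (-2.69 to -2.51). NEUROD4 was at 12.5 and 118 (-3.23), NHLH1 at 15.5 and 143 (-3.21) and NEUROD1 at 18.9 and 161 (-3.09). NEUROG2 was at 1.39 and 19.3 (-3.79, -4.63 to -3.07), on 15 UMIs in DLX-positive cells. NHLH2 had 2 and 112 UMIs (-2.45). The gaps were wider in a window of depth that kept 579 DLX-positive and 6733 DLX-negative cells. The log2 ratios there were -3.57 for NEUROG1, -4.53 for NEUROD1 and -6.11 for NEUROD4. NEUROG1 was at -3.28 and NEUROG2 at -6.50 with doublets left out. With a limit of 2 UMIs of DLX1 and DLX2, NEUROG2 was at -2.81 and NEUROD4 at -3.25. NEUROD2, at 0.742 and 0.831, had a log2 ratio whose interval included 0.

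ASCL2 stood alone on the other side, at 40.6 CPM in DLX-positive and 5.76 in DLX-negative cells (2.82, 2.64 to 3.00). A UMI of it was found in 33.8% of DLX-positive and 5.27% of DLX-negative cells, or 6.74% and 0.697% after thinning to 1500 UMIs. The DLX-positive cells, 7.79% of the library, held 32.6% of its ASCL2 UMIs. For every 100 NEUROG1 UMIs there were 44.2 ASCL2 UMIs in DLX-positive and 1.03 in DLX-negative cells. NEUROD1 was at 20.6 and 28.8 on the same scale. Near the limit of 3 UMIs, ASCL2 was at 36.7 CPM in the 176 cells with 2 UMIs of DLX1 and DLX2 and at 52.5 in the 138 cells with 3. No set of D22 cells known to lack these factors was at hand, and the part of free RNA in the low levels of DLX-positive cells was not tested.

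The DLX contrast was present on both sides of the division split. In dividing cells NEUROG1 was at 91.8 CPM in 178 DLX-positive and 374 in 1643 DLX-negative cells (-2.02, -2.19 to -1.87), and in non-dividing cells at 87.9 in 413 and 628 in 5226 (-2.84, -2.97 to -2.70). ASCL2 was at 33.0 and 7.58 in dividing and at 45.2 and 4.57 in non-dividing cells. Of 7 members measured in dividing cells, 5 were lower and 1 higher with DLX, beside 6.11% and 2.82% of genes. Of 8 in non-dividing cells, 6 were lower and 1 higher, beside 8.51% and 4.82%.

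The division contrast was also taken on each side of the DLX split. Between dividing and non-dividing DLX-negative cells, NHLH1 was at 36.5 and 199 CPM (-2.45, -2.54 to -2.36) and NEUROD4 at 49.8 and 145 (-1.54, -1.62 to -1.46). In DLX-positive cells the same factors were at 12.4 and 18.1 (-0.55, -1.10 to -0.01) and at 13.8 and 10.97 (0.33, -0.25 to 0.91). These DLX-positive sets differed in depth, with a median of 18757 UMIs in dividing and 11567 in non-dividing cells. The DLX ratios of both factors also moved in a window of depth, from -3.21 to -4.94 for NHLH1 and from -3.23 to -6.11 for NEUROD4. The part of depth and of doublets in the division contrast of DLX-positive cells was not tested. ASCL2 was at 7.58 and 4.57 in DLX-negative cells (0.73, 0.47 to 0.99) and turned in DLX-positive cells, at 33.0 and 45.2 (-0.46, -0.79 to -0.13). Whether these contrasts differ was not tested, as all cells are of 1 library.

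**Figure D4:**
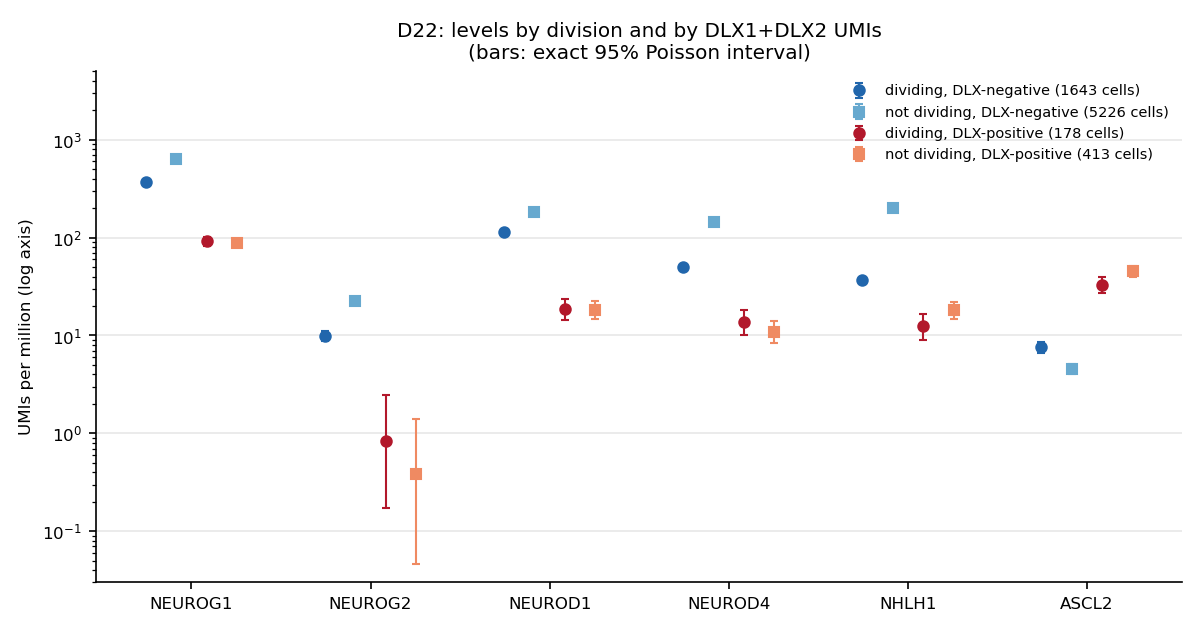
CPM (log axis) of 6 factors in the D22 cells split by division (5 or more against 0 UMIs of MKI67 and TOP2A) and by DLX1 and DLX2 (3 or more against 0 UMIs). Blue marks DLX-negative and red DLX-positive cells, circles dividing and squares non-dividing ones, and bars are exact 95% Poisson intervals. The red points lie below the blue for all but ASCL2, where they lie above, at 33.0 and 45.2 against 7.58 and 4.57.

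Of the listed partners, DLX-positive cells had 8 of 14 downstream neuronal genes at least 2-fold lower and 1 higher. MYT1, a zinc finger factor of new neurons, was the one higher, at 55.3 against 17.99 CPM. JAG1, a Notch ligand, was at 13.4 against 53.1 and ID2 at 64.8 against 20.4. The 3 E proteins were within 2-fold. Of 7 measured genes among 16 other bHLH factors, 2 were higher and 3 lower.

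TBR1 and PPP1R17, used as a sign of the glutamatergic side, gave 764 D22 cells with 3 or more UMIs and no DLX1 or DLX2, against 686 with the opposite pattern. The summed level of the 7 neuronal genes also differed, at 10258 CPM on the first side and 1190 on the DLX side, and its part in these contrasts was not tested. Of 7 members measured, 5 were at least 2-fold higher on the TBR1 and PPP1R17 side and 1 lower, beside 16.5% and 9.47% of genes. NHLH1 was at 147 against 13.5 CPM (3.44, 3.18 to 3.71), NEUROD1 at 91.9 against 17.9 (2.36) and NEUROG1 at 222 against 93.3 (1.25). NEUROD4, at 20.2 and 13.2, was under 2-fold. ASCL2 had 5 UMIs on the TBR1 and PPP1R17 side and 398 on the DLX side (-6.35, -7.98 to -5.11).

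The UMIs of the factors were also counted within single D22 cells. After thinning to 5000 UMIs, which 9401 of the 9523 cells reached, 70.2% of cells held NEUROG1, 42.2% NEUROD1, 35.6% NHLH1 and 29.7% NEUROD4. Of the NEUROD4 cells, 93.6% (92.6 to 94.5) also held NEUROG1, against 60.4% (59.2 to 61.6) of the cells without NEUROD4. For NEUROD1 cells these shares were 91.8% and 54.6% and for NHLH1 cells 91.5% and 58.5%. All 4 factors were found in 11.02% of cells and none of them in 23.8%. Doublets were kept in these counts, no cell set known to lack NEUROG1 gave a background share, and the part of free RNA and of doublets was not tested.

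In the 1864 cells with exactly 1 of the 4, it was NEUROG1 in 80.3%. NEUROD4 alone made up 3.54% of those cells. ASCL2 cells were unlike the others, as NEUROD1 was found in 15.4% (12.0 to 19.3) of them against 43.4% (42.3 to 44.4) of the cells without ASCL2. NHLH1 was found in 9.05% of them against 36.8%. NEUROG1, at 49.4% of ASCL2 cells, was still frequent.

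**Figure D5:**
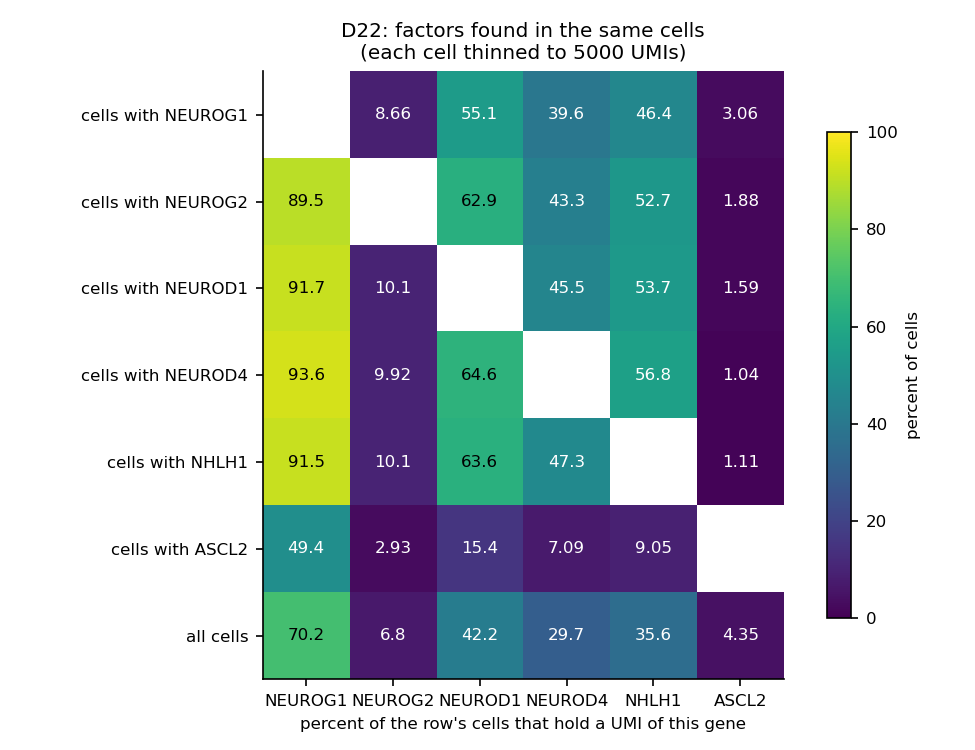
Share of D22 cells, each thinned to 5000 UMIs, that held a UMI of the gene in the column, among the cells that held a UMI of the gene in the row, with all 9401 cells in the last row. The color runs from 0 to 100%, and a gene's own share in its own cells is left blank. The NEUROG1 column reaches 93.6% for NEUROD4 cells and 49.4% for ASCL2 cells, against 70.2% of all cells.

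Over the same D22 cells, the genes most like each factor were ranked by Pearson's r of log-normalised levels among 10387 genes with 500 or more UMIs. These are descriptions across 9523 cells of 1 library, which share its depth and its mix of cells. For NEUROG1 the first 5 were CFAP298 (0.65), HES6 (0.64), NEUROD1 (0.58), IGFBP2 (0.58) and BTBD17 (0.57). For NEUROD1 they were NEUROG1 (0.58), CFAP298 (0.54), NHLH1 (0.49), CHRNA3 (0.48) and HES6 (0.47), and for NEUROD4 HES6 (0.53), CFAP298 (0.51), NEUROG1 (0.48), BTBD17 (0.48) and CHRNA3 (0.48). NHLH1 was most like CFAP298 (0.53), LHX9 (0.52), SSTR2 (0.51), NEUROG1 (0.50) and NEUROD1 (0.49). HES6 is an unusual HES protein that promotes rather than blocks neuronal differentiation. ASCL2 had r between -0.19 and -0.17 with all 4.

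Between D22 and D24, with DAPT present, 7 of 8 members measured were at least 2-fold lower and NHLH2 was higher, beside 19.1% of 19188 genes lower and 14.1% higher. The median log2 ratio was -2.10 against -0.12 for all genes. ASCL2 led, with 1342 UMIs at D22 and 8 at D24 (-6.50, -7.71 to -5.51), then NEUROD4 (-4.54, -4.70 to -4.37) and NEUROG1 (-3.42, -3.47 to -3.36). NHLH1 (-2.23), NEUROG2 (-1.97), NEUROD2 (-1.91) and NEUROD1 (-1.84) had smaller ratios. NHLH2 had 116 UMIs at D22 and 485 at D24 (2.96, 2.66 to 3.26).

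The partners of the factors were lower too. All 5 Notch ligands and modifiers were at least 2-fold lower, with MFNG, which modifies the Notch receptor, at 1.45 against 78.7 CPM and DLL1 at 6.96 against 287. HES6 was at 47.5 against 1386, and GADD45G, a stress response gene of neuronal precursors, at 15.7 against 336. Of 8 HES, HEY and ID genes, HES6 included, 6 were lower and 0 higher, and of 3 E proteins 2 were lower. The share of dividing cells went from 21.5% of D22 cells to 0.516% of D24 cells beside these values.

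The 47 dividing cells left at D24 held 10.6% of the NEUROD1 UMIs and 24.4% of the NEUROD4 UMIs of that library. NEUROD1 was at 513 CPM in them against 96.5 in the dividing cells of D22, with a UMI in 36 of the 47. NEUROD4 was at 133 against 42.6 and NEUROG1 at 127 against 325. SOX2 was found in 89.4% of these 47 cells and in 5.42% of the D24 cells without MKI67 or TOP2A UMIs. STMN2 was found in 93.6% and 99.8%, and was lower in the 47 cells, at 1651 against 9126 CPM. DLX1 was found in 0 of the 47 cells and DLX2 in 4.26%, against 3.56% and 3.26% of the non-dividing cells. A set of this size gives values for those cells only.

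D26 was compared with the same D24 library, and 6 of 8 members measured were at least 2-fold lower at D26 and 1 higher, beside 6.53% and 12.3% of 18466 genes. The median log2 ratio was -1.46 where that of all genes was 0.30. NEUROG1 was lowest in relative terms, at 1.38 against 46.5 CPM (-5.08, -5.33 to -4.83), followed by NHLH1 (-3.26), NEUROD4 (-2.50), NHLH2 (-1.49), NEUROD1 (-1.42) and NEUROG2 (-1.37). NEUROD2 was the one higher, on 47 against 15 UMIs (1.14, 0.28 to 2.09), and this call was lost without the filter on cells and with size factors. Among the partners, DLL3 was at 32.4 against 112 and ID4 at 251 against 108.

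At D26, NEUROD1 and NEUROG2 were higher on the glutamatergic than on the DLX side. In that library, the 7423 cells with 3 or more UMIs of TBR1 and PPP1R17 and no DLX1 or DLX2 were 67.1% of the library and held 75.4% of the NEUROD1 and 85.5% of the NEUROG2 UMIs. NEUROD1 was at 16.0 CPM there and at 0.887 in the 751 cells of the DLX side (4.17, 3.05 to 5.62). NEUROG2 was at 2.06 against 0.148 (3.80, 1.30 to 9.11). The DLX side held only 6 UMIs of NEUROD1 and 1 of NEUROG2. Of 6 members measured, 3 were at least 2-fold higher on this side and 0 lower, beside 9.16% and 5.84% of genes. NEUROG1, at 0.522 and 0.444, and NHLH1, at 1.43 and 2.22, had log2 ratios whose intervals included 0.

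NHLH2 at D24 was also looked at by IRX3 and IRX5. In 44 cells with 3 or more UMIs of IRX3 and IRX5, homeobox genes of other regions of the neural tube, it was at 196 CPM (154 to 247), against 5.09 (4.57 to 5.65) in the 8891 cells with 0. This set was chosen after its values were seen. It was 0.483% of the D24 cells and held 15.1% of the NHLH2 UMIs, with a UMI in 22 of the 44. NHLH1 was also higher in them, at 83.4 against 24.6 CPM (1.76), and so was NEUROD4, at 13.5 against 3.73 (1.85). The NEUROD4 value rests on 5 UMIs in 2 cells. NEUROG1 (0.77) and NEUROD1 (0.83) were higher by less than 2-fold. At D26 the levels of NHLH2 were 30.0 in 94 such cells and 1.69 in the 10837 with 0 UMIs. NEUROG1 was at 10.3 against 0.998 there, on 11 UMIs, and NHLH1 at 20.6 against 2.02. At D22 the levels of NHLH2 were 2.16 in 154 cells, on 6 UMIs, and 0.847 in 9058, with a log2 ratio whose interval included 0 (1.35, -0.13 to 2.52). The 4 factors that were higher with IRX3 and IRX5 at D24 were lower with them at D22, with NEUROG1 at 62.7 against 519 CPM (-3.05), NEUROD1 at 19.1 against 147 (-2.95), NHLH1 at 22.7 against 130 (-2.52) and NEUROD4 at 35.7 against 105 (-1.56).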

How the data were processed

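The authors aligned the reads to GRCh38 and deposited whole UMI counts per gene and barcode, made with Cell Ranger (per the file headers 6.1.2 in the tagged pool, else 3.1.0), without normalization. In each tagged file the tag of its labelled condition led in every barcode. Cells were kept by the limits the study lists for each library. The D0 limit on complexity was applied as an upper limit of 0.85, since the reverse left 1 cell.

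Counts were summed over cells and scaled to a common total (CPM) with exact Poisson intervals. Ratios have the exact binomial interval of the UMI split, and shares Clopper-Pearson intervals, all at 95%. A count of 0 was given a limit of 3 UMIs. Calls need 10 UMIs in either group and 2-fold, and no test was possible with 1 library per group. In Poisson counts simulated for D10_XAV939 over D10_dSMADi, 200 of 19250 genes were changed 4-fold. Of these 98.5% were called, and 95.8% of intervals of unchanged genes held the true value. Such counts hold only the counting error that the intervals are built on. They do not show how the intervals fare where UMIs are gathered in few cells. Doublets (Scrublet score of 0.25 or more in scanpy 1.11.5) stayed in. Genes named beside the members are, per comparison, up to 4 of the listed genes by ratio among those over 50 CPM, and the 5 most like a member. The members, lists and sets were chosen with earlier results of these data known. The summed level of a further marker list, which was higher at D10 without XAV939, is not reported here.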

Additional observations from a re-analysis of the deposited data

Results flagged for a closer look

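NEUROD4 stood in opposite directions with XAV939 at the 2 days. Its log2 ratio of D5_XAV939 over D5_dSMADi was -4.65, on 2 against 46 UMIs, and that of D10_XAV939 over D10_dSMADi was 2.25, on 95 against 27 UMIs. The difference between the days was not tested, as each value rests on 1 library per condition. At D5, the 46 UMIs lay in 22 cells of D5_dSMADi, with at most 8 in a cell. At D10, all 95 UMIs of D10_XAV939 lay in 30 of the 74 cells with 10 or more UMIs of STMN2 and DCX.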

How the results depend on the processing

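For the libraries, 6 settings were changed in turn (no filter on cells, a stricter filter, doublets left out, median-of-ratios size factors, the mean over cells, no minimum of UMIs), and for the D22 sets also the limits on MKI67 and TOP2A or on DLX1 and DLX2 and a depth window. Of 106 counts of members called, 101 stayed within 1.5 times and 5 moved. The stricter filter removed no cell of the D5 and D10 libraries, so it could move no value there. The members lower in D10_XAV939 than in D5_XAV939 were 2, and 1 without the filter on cells, with doublets left out or by the mean of cells. The members higher at D26 than at D24 were 1, and 0 without the filter or by size factors. NEUROD2 decides both. Size factors shifted all D26 over D24 ratios by 0.30 (log2) and those of D10 over D5 by 0.24 and 0.16. Of 335 ratios of single members, 52 left their interval and 0 called ratios changed sign. In DLX-positive cells, the NEUROD4 ratio was -6.11 in the depth window against -3.23. The causes were not tested. No paired analysis was possible because each condition is 1 library. NEUROD2 and NEUROD6 were under 1 CPM in every library, and so was NHLH2 at D5, D10 and D22. ASCL2 was under it outside D22, NEUROD4 at D0, D5, D10_dSMADi and D26, and NHLH1 at D0. NEUROG1 was under it at D0, D5 and D10_dSMADi, NEUROG2 at D0, D5_dSMADi and D10, and NEUROD1 at D0 and D5. Low counts limit what can be said of these factors there, and the NEUROD4 difference at D5 lies in this range.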
